A study of Homo sapiens with 6 samples.

Results

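The SLC25 mitochondrial carriers were followed in the liver cancer line SNU-368 after knockdown of TFAM, a factor that packages mitochondrial DNA and takes part in its transcription. Members were all protein-coding rows of the deposited table whose symbol is SLC25A followed by a number, which gave 48 of 60612 rows. The 6 libraries were 3 of SNU-368 with a control hairpin (shCtrl) and 3 of the same line with a hairpin against TFAM (shTFAM). The series text counts the 6 as cell lines, and nothing says whether replicates came from separate transductions or cultures, so p-values measure only the spread between these libraries, which may be technical. No dose, time after transduction or further treatment of either group is stated in the sources used here.

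The inner mitochondrial membrane is closed to most metabolites, and SLC25 proteins are the main carriers that let them through. They are encoded in the nucleus and made in the cytosol, those of the inner membrane are inserted by the TIM22 pathway, and most exchange a solute of the matrix for one of the cytosol. Different members carry ADP and ATP, phosphate, the acids of the citrate cycle, amino acids, iron, glutathione and vitamin-derived cofactors, so a cell's set of carriers describes which exchanges its mitochondria can make.

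Libraries held 43286024 to 61058282 counts. TFAM mRNA was 82.2 ± 6.70 CPM (counts scaled to library size with TMM factors; SD, n = 3) in shCtrl and 61.5 ± 4.47 (SD, n = 3) in shTFAM (log2 fold change -0.42, SE 0.107, edgeR quasi-likelihood adjusted p 0.0377), and that call was lost without any 1 library (adjusted p 0.0676 to 0.0948). Transcripts of mitochondrial DNA took 10.1 to 14.2% of counts in shCtrl and 7.91 to 10.7% in shTFAM. Of 10 hepatocyte and liver cancer markers, 5 (ALB, AFP, TTR, APOA1, APOB) had 0 counts in every library. HNF4A was at 0.0863 to 0.290 FPKM, while the epithelial keratins KRT8 and KRT18 reached at least 74.0 FPKM. Most of these listed markers were thus at or near 0 in this line labelled as liver cancer. Urea cycle genes outside that list were mixed. CPS1 was at 1312 to 1587 CPM and ASS1 at 571 to 795 CPM, while OTC had 0 counts and ARG1 at most 9 in a library. Of the leukocyte markers PTPRC, CD3E and CD68, the first pair had 0 counts and CD68 was at 4.13 to 6.35 FPKM in shCtrl and 12.2 to 17.1 in shTFAM. The 4 fibroblast markers summed to 23.5 to 37.0 FPKM in shCtrl and 35.8 to 39.9 in shTFAM, a sum carried by COL1A1 (21.3 to 34.9 and 27.9 to 32.7). The other 3 were higher in every shTFAM library than in any control: PDGFRB at 1.81 to 1.93 and 5.03 to 6.05 FPKM, DCN at 0.158 to 0.284 and 1.16 to 1.81, and COL3A1 at 0.0245 to 0.0518 and 0.346 to 0.700. The 3 endothelial markers summed to at most 0.643 FPKM. In bulk RNA, fewer cells of a type and less RNA per cell cannot be told apart, and the part of these marker differences in the carrier results was not tested.

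Summed carrier mRNA overlapped between the groups, and 4 single carriers were lower in shTFAM. Of the 48 rows, 38 reached a mean of 0.5 FPKM (fragments scaled to gene length and library depth) and were tested among 14708 rows. Of these 38, 0 rose and 4 fell at an adjusted p under 0.05 (edgeR), where 11.3% of all tested rows rose and 6.59% fell. Of the 4, 3 are described here: SLC25A32 (FAD and folate), SLC25A10 (dicarboxylates) and SLC25A33 (pyrimidine nucleotides). At an unadjusted p under 0.05, 3 members were higher and 4 lower, where 18.7% of all tested rows were higher and 16.1% lower. DESeq2 called 1 higher and 4 lower, against 15.1% and 11.7% of the 14380 rows it tested. The median log2 fold change of the 38 was -0.02, beside -0.02 over all tested rows, and the median absolute log2 fold change was 0.29, beside 0.32. The lowest and highest values of the groups did not overlap for 13 of 38 members, 3 above and 10 below, where 22.1% of all tested rows lay above, 20.1% below and 42.2% either way. With 3 libraries a group, the exact permutation test of a single row cannot go below p = 0.1.

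**Figure D1:**
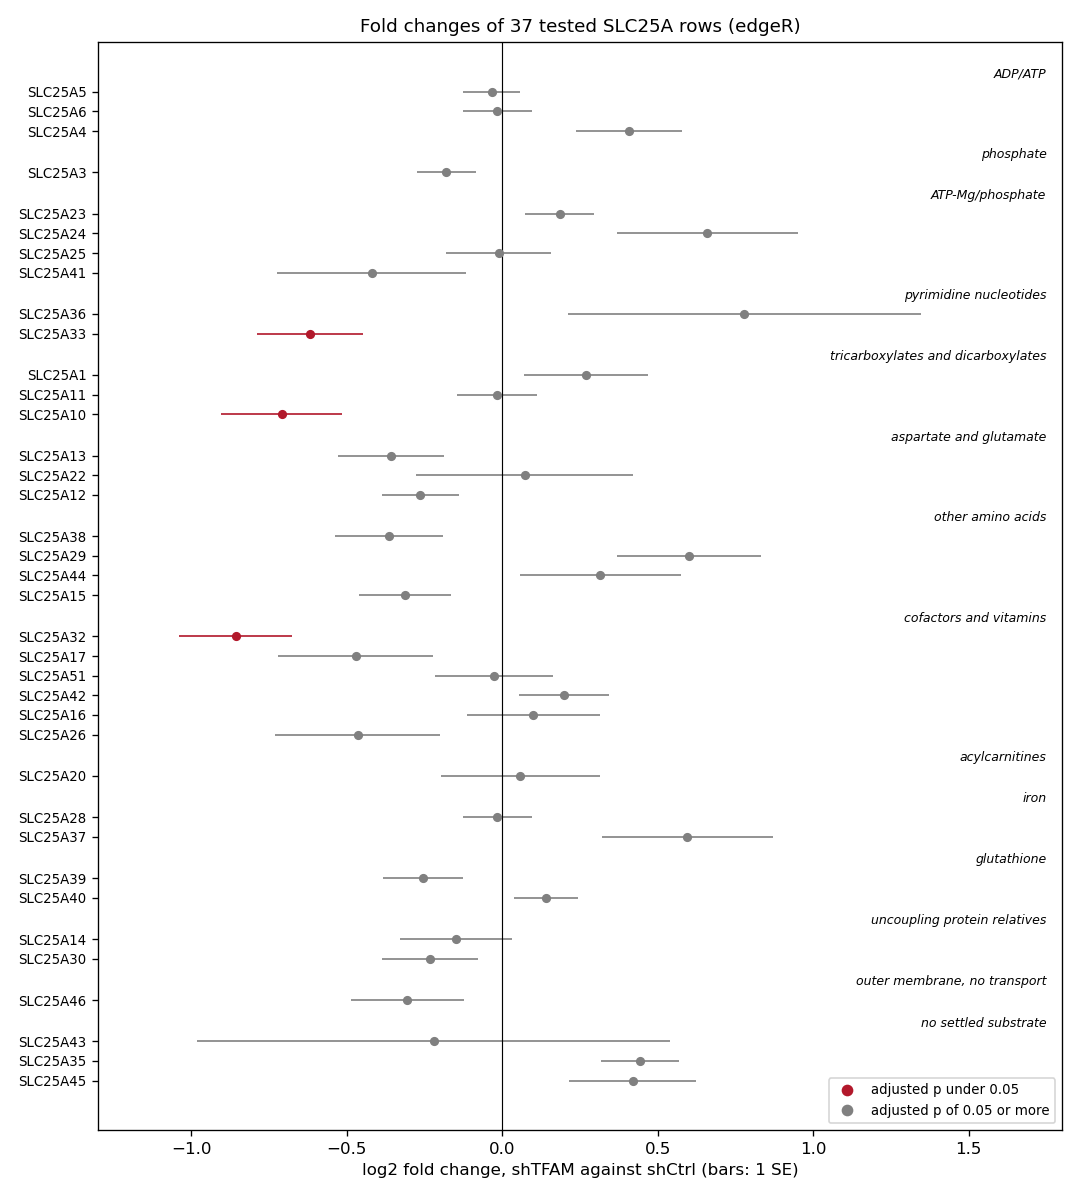
The log2 fold change of shTFAM against shCtrl (x axis, bars 1 SE) is drawn for 37 of the 38 tested carriers, ordered by substrate, with the 3 described calls in red. The red points lie between -0.86 and -0.62, and the widest bar, of SLC25A43, spans 0.760 on each side.

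The promoters of SLC25A33, a called carrier, and of SLC25A27, which fell in fits with a looser filter, are given as examples of carriers that moved in the same direction. Each runs from 250 bases before to 50 after the RefSeq start (GRCh38.p14, plus strand), at chr1:9539215-9539514 and chr6:46652725-46653024. Capitals mark CACGTG, the E-box hexamer.
SLC25A33: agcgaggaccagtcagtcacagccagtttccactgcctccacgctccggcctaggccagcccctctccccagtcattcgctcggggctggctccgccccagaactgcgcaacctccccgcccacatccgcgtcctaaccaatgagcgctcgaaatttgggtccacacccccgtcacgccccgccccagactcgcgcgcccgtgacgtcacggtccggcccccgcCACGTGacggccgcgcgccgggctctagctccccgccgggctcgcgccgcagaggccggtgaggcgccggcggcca
SLC25A27: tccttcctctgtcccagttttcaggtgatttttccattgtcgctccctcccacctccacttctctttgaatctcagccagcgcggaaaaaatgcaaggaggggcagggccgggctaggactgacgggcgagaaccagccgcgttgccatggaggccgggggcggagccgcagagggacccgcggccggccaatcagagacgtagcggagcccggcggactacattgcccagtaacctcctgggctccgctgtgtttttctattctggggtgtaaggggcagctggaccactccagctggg
The single CACGTG of the SLC25A33 promoter begins 26 bases before the start. On both strands, CACGTG was in 7.26% of 35093 RefSeq promoters and in 9 of 50 promoters of 40 carrier genes, ACGTG, which every CACGTG contains, in 21.4% and 15, and the NRF1 motif (GCGCA, any base, GCGC) in 5.79% and 5. The SLC25A27 promoter held none of these motifs, nor did that of SLC25A10, a called carrier whose promoter is not printed, which says nothing about any factor. The 50 promoters include more than 1 for some genes and none for SLC25A32, so that called carrier was not searched. A match is a description of letters.

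SLC25A32, the importer of FAD and folate, had the largest fall of the tested carriers. Its level was 31.6, 33.5 and 45.3 CPM in shCtrl 1, 2 and 3 and 22.7, 21.0 and 17.1 CPM in shTFAM 1, 2 and 3. Every shTFAM library lay below every shCtrl library, and the fall was 1.81-fold (log2 -0.86, SE 0.180, edgeR adjusted p 0.0213). The call was lost without shTFAM 2 (adjusted p 0.0607) and without shTFAM 3 (0.0624), and held without each other single library. Its gene lies at 8:103398635-103415189 on the minus strand (ENSG00000164933), where 476 bases overlap DCAF13 on the plus strand, a ribosome biogenesis factor. DCAF13 also fell, at 80.4 ± 13.0 CPM (SD, n = 3) in the controls and 41.3 ± 8.00 (SD, n = 3) in the knockdown (log2 -0.96, SE 0.181, edgeR adjusted p 0.0150). The kit keeps strand, but no source used here gives the strand setting of the counting, so reads of the overlap may be in both rows.

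SLC25A10, which exchanges malate or succinate for phosphate, was at 71.1, 53.7 and 75.5 CPM in shCtrl 1 to 3 and 42.7, 31.4 and 48.2 CPM in shTFAM 1 to 3. The groups did not overlap, although the lowest shCtrl library and the highest shTFAM library were close (log2 -0.71, SE 0.195, edgeR adjusted p 0.0464). SLC25A33, an importer of pyrimidine nucleotides that feeds mitochondrial DNA and RNA synthesis, was at 22.8, 23.5 and 28.1 CPM in shCtrl and 18.0, 17.5 and 12.9 CPM in shTFAM. All 3 shTFAM libraries were below the control ones, with shTFAM 3 lowest (log2 -0.62, SE 0.171, edgeR adjusted p 0.0475). Both calls were lost when any 1 library was left out: edgeR adjusted p ran from 0.0502 to 0.109 for SLC25A10 and from 0.0702 to 0.109 for SLC25A33.

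**Figure D2:**
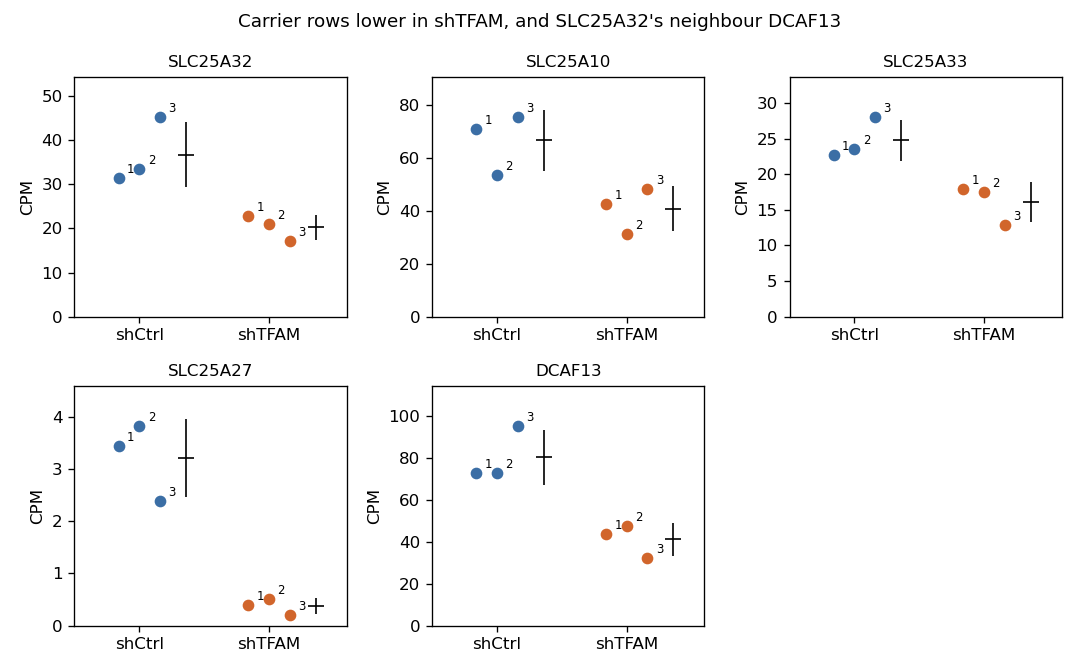
Level in CPM (y axis, from 0) in each library, numbered 1 to 3, for SLC25A32, SLC25A10, SLC25A33, SLC25A27 and DCAF13, with the mean and SD in black. In every panel all shTFAM points lie below all shCtrl points, most widely for SLC25A27.

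SLC25A27 (UCP4), a relative of the uncoupling proteins best known from brain, had the widest separation of any carrier and did not reach the 0.5 FPKM needed for the test (mean 0.461). It had 153, 197 and 118 counts in shCtrl 1, 2 and 3 and 18, 23 and 12 in shTFAM 1, 2 and 3, or 3.43, 3.82 and 2.38 CPM against 0.387, 0.511 and 0.207. The lowest control library was at 2.38 CPM and the highest knockdown library at 0.511. Without the filter, edgeR gave -3.13 on the log2 scale (SE 0.414, adjusted p 0.00534), in a fit where 2.29% of 30158 rows fell. With edgeR's own count filter it was -3.12 (SE 0.406, adjusted p 0.00451), where 5.12% of 19020 rows fell. In both of these fits SLC25A32 was the only other carrier called.

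The ADP/ATP carriers, which exchange matrix ATP for cytosolic ADP, dominated the family by FPKM, and 0 of 3 tested members passed. SLC25A5 was at 279.5, 290.0 and 310.3 FPKM in shCtrl and 295, 258 and 259 FPKM in shTFAM, with overlapping groups (log2 -0.03, SE 0.0922, edgeR adjusted p 0.822). SLC25A6 was at 203, 190.3 and 184 FPKM in shCtrl and 189, 158 and 192 in shTFAM (log2 -0.02, SE 0.111, adjusted p 0.938). Together these paralogs made up 58.7 to 62.1% of the family's summed FPKM in every library. That share depends on the gene lengths used. With SLC25A3 added, the share was 63.6 to 67.0% of family FPKM but 45.7 to 51.7% of family counts. SLC25A4, the heart and muscle form, had far less mRNA: 2.82, 2.77 and 2.78 FPKM in shCtrl and 3.03, 3.22 and 4.20 in shTFAM. Its shTFAM libraries lay above all controls, but the spread of that group was wide (log2 0.41, SE 0.170, adjusted p 0.139). The germ cell form SLC25A31 had 0 counts in all libraries, as did the germ cell markers DDX4 and DAZL. Near-identical copies can share reads; the 41 SLC25A pseudogene rows held 45 to 131 counts per library in all.

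Family summed FPKM was 804, 773 and 842 in shCtrl and 798, 700 and 729 in shTFAM, with overlapping groups. SLC25A3, the phosphate carrier that supplies the substrate of ATP synthase, was the third most abundant carrier by FPKM, at 37.5, 37.5 and 40.6 in shCtrl and 33.3, 29.6 and 33.3 in shTFAM. Its groups did not overlap (log2 -0.18, SE 0.0951, edgeR adjusted p 0.222), and it passed in 2 alternatives, with counts outside mitochondrial DNA as library size and with quantile-normalized FPKM. Levels between genes depend on length. The gene length implied by counts and FPKM tracked the union of all exons at a median factor of 1.19 (within 5% of it for 37 of 45 rows). With that factor included, the implied length was 0.890 to 9.40 times (median 1.74) that of the transcript with the longest coding sequence. Per kilobase of that transcript SLC25A3 ranked 2 rather than 3 and SLC25A36 ranked 4 rather than 14.

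**Figure D3:**
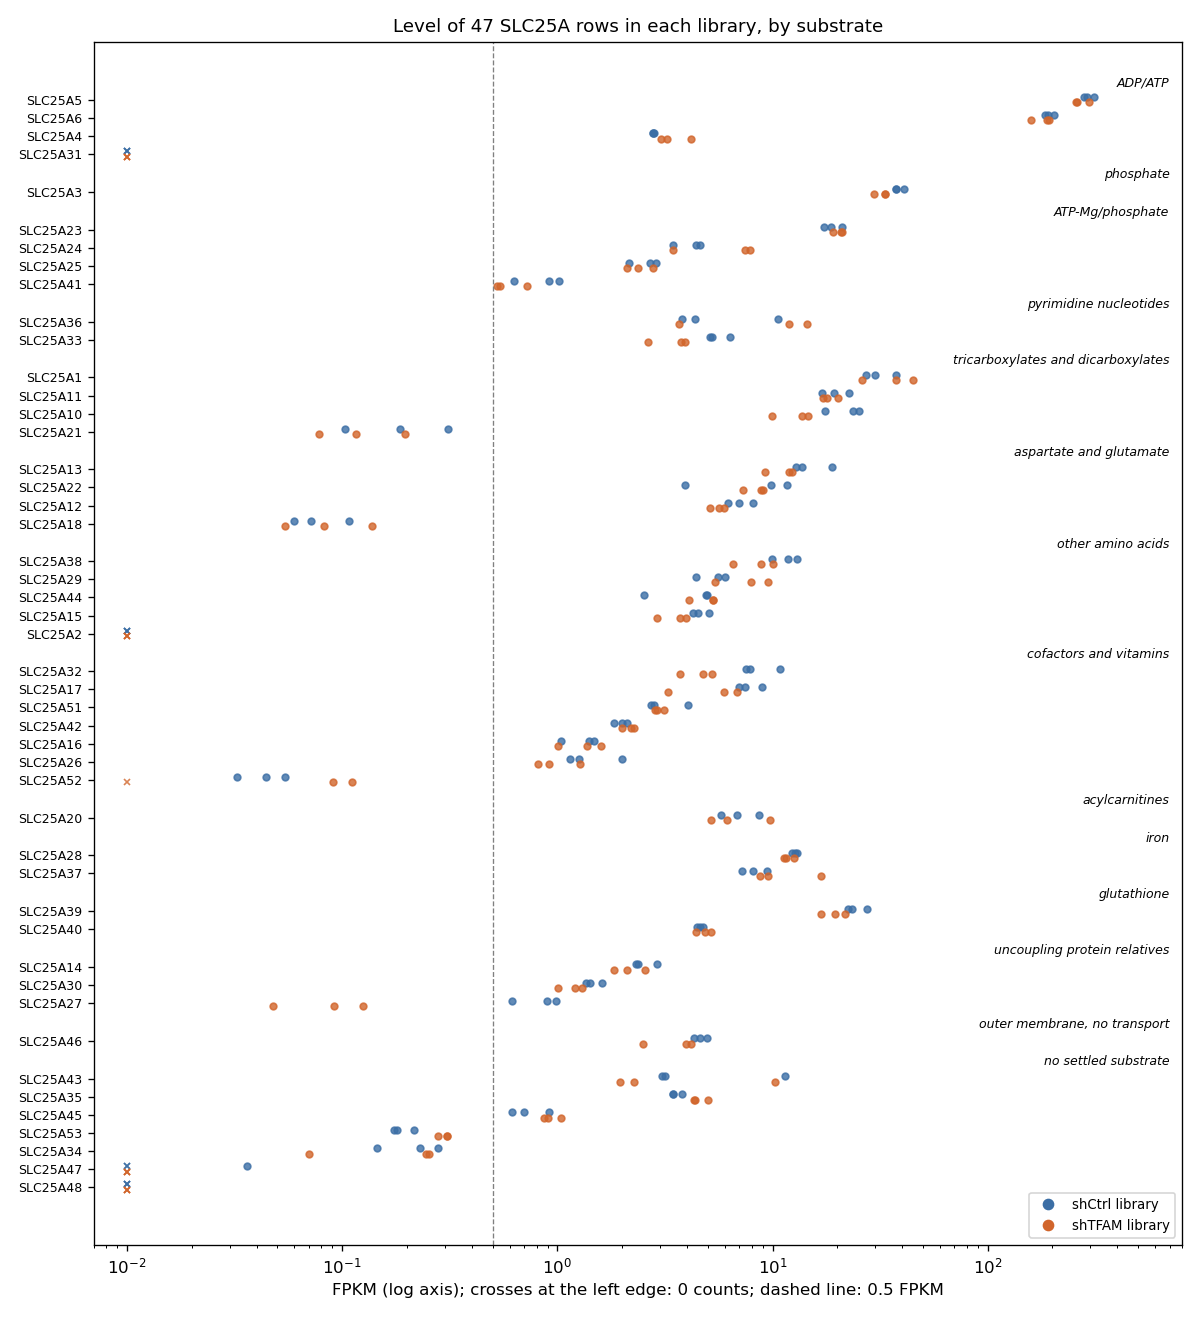
FPKM (log x axis) of 47 of the 48 rows in each library, shCtrl in blue and shTFAM in orange, by substrate, with crosses at the left edge for 0 counts and a dashed line at 0.5 FPKM. SLC25A5 and SLC25A6 stand apart at the right, and blue and orange points overlap for most rows.

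Among the ATP-Mg/phosphate exchangers, which adjust the adenine nucleotide pool of the matrix, 0 of 4 passed; SLC25A23, SLC25A24 and SLC25A25 are regulated by calcium and SLC25A41 is not. The most abundant, SLC25A23, was at 17.3, 18.7 and 21.0 FPKM in shCtrl and 19.1, 20.8 and 21.1 in shTFAM (log2 0.18, SE 0.110, edgeR adjusted p 0.278). SLC25A24 was at 34.1, 36.2 and 26.4 CPM in shCtrl and 62.8, 60.8 and 29.1 CPM in shTFAM, where the third library stayed at control level (log2 0.66, SE 0.291, adjusted p 0.156). Without shTFAM 3 its log2 fold change was 0.94 and passed (adjusted p 0.0204). SLC25A25 (log2 -0.01) and SLC25A41 (-0.42) did not pass.

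Of the carriers of citrate-cycle acids, SLC25A10 was the 1 of 3 tested that passed. SLC25A1, which exports citrate for lipid synthesis, was at 30.1, 27.3 and 37.4 FPKM in shCtrl and 45.2, 37.3 and 25.9 in shTFAM, with overlapping groups and the wider spread in shTFAM (log2 0.27, SE 0.200, edgeR adjusted p 0.378). SLC25A11, the 2-oxoglutarate carrier of the malate-aspartate shuttle, gave overlapping groups (log2 -0.02, SE 0.129, adjusted p 0.943). The oxoadipate carrier SLC25A21 was below the test filter at 21 to 86 counts.

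For amino acids, 0 of 7 tested carriers passed. SLC25A13 (citrin), an aspartate/glutamate exchanger of the malate-aspartate shuttle, was at 13.7, 12.8 and 18.8 FPKM in shCtrl and 12.4, 11.9 and 9.21 in shTFAM (log2 -0.36, SE 0.171, edgeR adjusted p 0.183). Its groups were separate by a narrow margin. The paralog SLC25A12 (aralar) gave a log2 fold change of -0.26 (SE 0.124, adjusted p 0.179). SLC25A38, which imports glycine for heme synthesis, was at 11.7, 13.0 and 9.90 FPKM in shCtrl and 10.1, 8.88 and 6.55 in shTFAM, with overlap (log2 -0.36, SE 0.174, adjusted p 0.184). SLC25A29, for basic amino acids, gave log2 0.60 (SE 0.230, adjusted p 0.113) and passed without shTFAM 2 (0.80, adjusted p 0.0473). The ornithine carrier SLC25A15 gave -0.31, the branched-chain amino acid carrier SLC25A44 gave 0.32 and the glutamate carrier SLC25A22 gave 0.07. The glutamate carrier SLC25A18 was at 17 to 36 counts and the ornithine carrier SLC25A2 had 0 in every library.

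Cofactor carriers held 2 of the 4 calls: 2 of 7 tested members fell and 0 rose, where 6.59% of all tested rows fell and 11.3% rose. SLC25A32 is given above. SLC25A17, a peroxisomal carrier of CoA, FAD and NAD, was at 34.0, 32.6 and 40.9 CPM in shCtrl and 32.5, 28.7 and 16.4 in shTFAM, where shTFAM 3 was far below the others (log2 -0.47, SE 0.248, edgeR adjusted p 0.222). The S-adenosylmethionine carrier SLC25A26 gave -0.47 (adjusted p 0.256), and the NAD carrier SLC25A51 gave -0.03. For coenzyme A, SLC25A16 gave 0.10 and SLC25A42 gave 0.20. The second NAD carrier, SLC25A52, had 0 to 9 counts.

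The iron importers and the glutathione importers each had 2 tested members and 0 calls. SLC25A28 (mitoferrin-2) was at 12.8, 12.3 and 13.0 FPKM in shCtrl and 11.6, 11.4 and 12.6 in shTFAM (log2 -0.02, SE 0.110, edgeR adjusted p 0.937). SLC25A37 (mitoferrin-1), known for its role in red cell precursors, was at 86.4, 75.6 and 66.1 CPM in shCtrl and 83.1, 91.7 and 169.7 in shTFAM, with shTFAM 3 alone high (log2 0.60, SE 0.274, adjusted p 0.171). SLC25A39, an importer of glutathione, was at 27.5, 22.5 and 23.3 FPKM in shCtrl and 21.6, 16.7 and 19.6 in shTFAM (log2 -0.26, SE 0.129, adjusted p 0.206), and its paralog SLC25A40 gave 0.14 (SE 0.102, adjusted p 0.373). In CPM the groups of both glutathione carriers were separate by narrow margins, and their fold changes had opposite signs. For SLC25A39 the highest shTFAM library was at 90.6 CPM and the lowest shCtrl library at 92.3. For SLC25A40 the lowest shTFAM library was at 28.4 CPM and the highest shCtrl library at 28.2, and in FPKM its groups overlapped.

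The carnitine/acylcarnitine exchanger SLC25A20, through which fatty acids reach matrix oxidation, was at 5.78, 6.82 and 8.66 FPKM in shCtrl and 9.70, 6.16 and 5.16 in shTFAM, the widest spread lying within the knockdown group (log2 0.06, SE 0.256, edgeR adjusted p 0.901). Among relatives of the uncoupling proteins, SLC25A14 (UCP5) was at 2.37, 2.89 and 2.31 FPKM in shCtrl and 2.55, 2.10 and 1.83 in shTFAM (log2 -0.15, adjusted p 0.602), and SLC25A30 gave -0.23 (adjusted p 0.328). SLC25A46, an outer membrane protein of mitochondrial dynamics rather than a carrier, was at 4.60, 4.32 and 4.96 FPKM in shCtrl and 4.20, 3.96 and 2.50 in shTFAM. Its groups were separate, with shTFAM 3 lowest (log2 -0.31, SE 0.181, adjusted p 0.274).

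Among rows with no settled substrate, 0 of 3 tested members passed, and SLC25A35 came closest to a rise in the family. It was at 15.6, 17.4 and 15.6 CPM in shCtrl and 20.6, 23.9 and 21.6 in shTFAM, with separate groups (log2 0.44, SE 0.126, edgeR adjusted p 0.0516). DESeq2 gave an adjusted p of 0.0136. The gene overlaps RANGRF on the opposite strand over 1439 bases, and RANGRF gave a log2 fold change of 0.00 (adjusted p 1.00). SLC25A45 gave 0.42 (adjusted p 0.192). SLC25A53 had 76, 73 and 71 counts in shCtrl and 116, 114 and 139 in shTFAM, below the filter, and gave 0.70 without it (edgeR adjusted p 0.157). SLC25A34 had 13 to 60 counts, SLC25A47 had 4 counts in shCtrl 3 and 0 elsewhere, and SLC25A48 had 0.

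Some carriers varied widely between the libraries of a single group. A range of at least 2-fold within a group was seen for 5 of 38 members, beside 20.4% of all tested rows. SLC25A36, the other pyrimidine nucleotide carrier, was at 51.6, 46.0 and 125 CPM in shCtrl and 45.5, 149.6 and 187 CPM in shTFAM, a range of 2.73-fold and 4.12-fold. Both groups held low and high libraries, and the log2 fold change of 0.78 had an SE of 0.568 (edgeR adjusted p 0.370). SLC25A43, a carrier of unknown solute, was at 37.2, 10.5 and 10.02 CPM in shCtrl and 34.7, 6.70 and 8.15 in shTFAM. The first library of each group was 3.71-fold and 5.17-fold above the lowest of its group (log2 -0.22, SE 0.760, adjusted p 0.866). SLC25A22 was at 51.8, 21.1 and 61.2 CPM in shCtrl and 49.2, 49.4 and 42.3 in shTFAM, so that shCtrl 2 alone was low. SLC25A37 and SLC25A24, given above, were the others, and SLC25A17 in shTFAM and SLC25A44 in shCtrl were just under the limit, each at 1.97-fold.

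**Figure D4:**
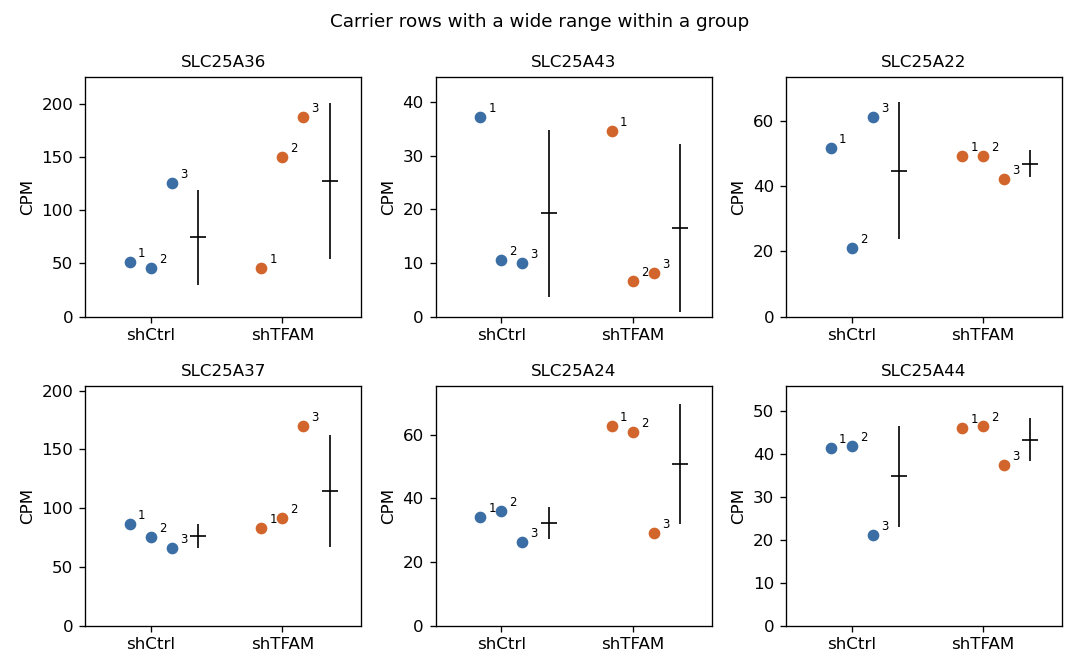
Level in CPM (y axis, from 0) of the 5 carriers with a range of at least 2-fold within a group, and of SLC25A44, in each numbered library, with mean and SD in black. The single libraries that stand apart differ from gene to gene: shCtrl 2 for SLC25A22, shTFAM 3 for SLC25A37, and the first library of both groups for SLC25A43.

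The balance between paralogs was compared within each library for 8 pairs, which needs no scaling between libraries. The 2 pairs whose groups were separate were the mitoferrins and the glutathione importers. Among all tested single rows, 42.2% had separate groups in CPM, and pairs of other genes were not compared. The mitoferrins were separate by a narrow margin: the lowest shCtrl log2 ratio was 0.437 and the highest shTFAM one 0.405, with shTFAM 3 at -0.424. The log2 ratio of SLC25A28 to SLC25A37 FPKM had a control mean of 0.63 ± 0.21 (SD, n = 3) and a knockdown mean of 0.08 ± 0.44 (SD, n = 3), with an exact permutation p = 0.1 (two-sided, 0.4 adjusted over the 8 pairs). That of SLC25A39 to SLC25A40 was 2.40 ± 0.20 in shCtrl and 2.00 ± 0.19 in shTFAM (exact permutation p = 0.1, adjusted 0.4). This is the smallest p that 3 against 3 allows, so no pair could pass. The ratio of SLC25A33 to SLC25A36 shifted by -1.33 (exact permutation p = 0.2), with shTFAM 1 at control level. SLC25A5 to SLC25A6 differed by -0.01 between groups (exact permutation p = 0.9), with a control mean of 0.61. The pairs SLC25A24/SLC25A23, SLC25A13/SLC25A12, SLC25A22/SLC25A18 and SLC25A16/SLC25A42 differed by 0.41, -0.09, -0.01 and -0.10.

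**Figure D5:**
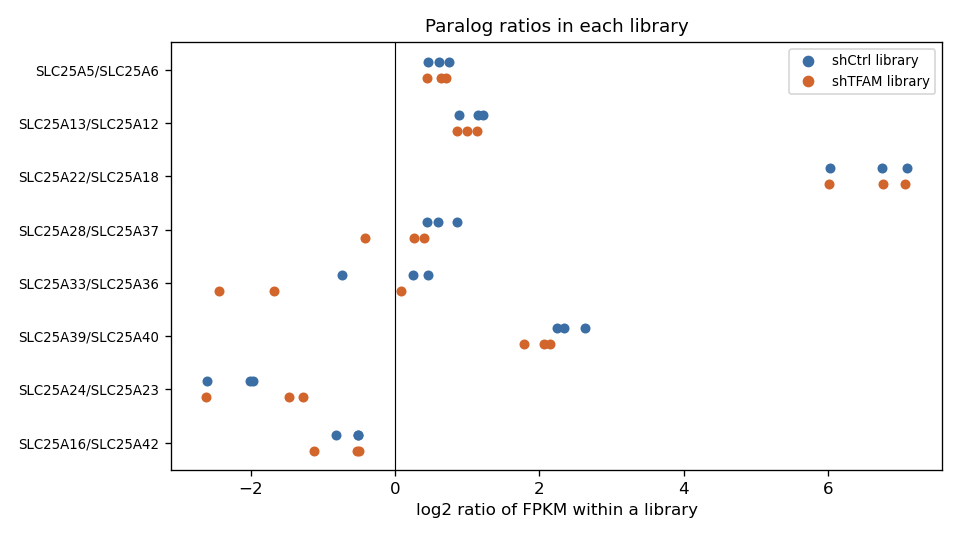
Log2 ratio of FPKM within each library (x axis) for 8 paralog pairs, shCtrl in blue and shTFAM in orange, 3 points each. The colours separate for SLC25A28/SLC25A37 and SLC25A39/SLC25A40 and overlap for the other pairs.

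Partner genes of the carriers, from 10 lists of 95 genes with 87 tested, gave 4 that rose and 14 that fell, with a median log2 fold change of -0.06. Over all tested rows 11.3% rose, 6.59% fell and 17.9% did either. The 18 of 87 partner calls lay near the share for either direction. By direction, the share of falls (14 of 87) was larger than over all tested rows and that of rises (4 of 87) smaller. These differences were not tested, and the lists below are small. The lists were also chosen with earlier results of these data known, which may shape these shares. The split of all tested rows depends on scaling. It was 1661 rises and 969 falls here, and 1198 and 1771 with counts outside mitochondrial DNA as library size. In the import machinery that delivers carriers to the membrane, 4 of 13 fell and 0 rose (median -0.28): TIMM10, an intermembrane space chaperone of carrier precursors, at -1.06 (edgeR adjusted p 0.0107), TIMM8A at -0.67 (0.0462), the receptor TOMM70 at -0.42 (0.0396) and the channel TOMM40 at -0.51 (0.0262). Among 19 other mitochondrial transporters, 2 rose and 2 fell: the sideroflexin SFXN3 (1.09, adjusted p 0.00395) and the calcium uniporter MCU (0.51, 0.0294) rose, and SFXN2 (-1.41, 0.00544) and the pyruvate carrier subunit MPC1 (-0.87, 0.0187) fell. SFXN3 was at 117, 131 and 143 CPM in shCtrl and 249, 257 and 323 in shTFAM. Members of the same family with other symbols (UCP2, MTCH1, MTCH2) gave 0 of 3 calls.

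Enzymes that use the same metabolites are again set beside the 11.3% of all tested rows that rose and the 6.59% that fell. Each list was small. The citrate, cofactor and iron lists each had a larger share of falls than all tested rows, a difference that was not tested. These lists too were chosen with earlier results of these data known. Of the 9 tested partners of the citrate and malate-aspartate carriers, 3 fell: GOT1 (log2 -0.65, edgeR adjusted p 0.0170), citrate synthase CS (-0.45, 0.0132) and malic enzyme ME2 (-0.62, 0.0132). Of 11 tested cofactor enzymes, 2 fell, FLAD1, which makes FAD, the solute of SLC25A32 (-0.86, adjusted p 0.00924), and the mitochondrial NAD kinase NADK2 (-0.75, 0.00724). FLAD1 was at 55.0, 47.6 and 54.2 CPM in shCtrl and 32.8, 29.3 and 24.1 in shTFAM. Of 10 genes of iron and glutathione use, 3 fell, among them the iron-sulfur scaffold ISCU (-0.66, adjusted p 0.00956) and GCLC (-0.59, 0.0138), and 1 rose: GCLM, the other subunit of the glutathione-making ligase (0.55, 0.0404). The adenylate kinase AK4 rose (1.85, adjusted p 0.0129), the only call among 7 adenylate and nucleotide partners. Acylcarnitine, glycine and one-carbon, and ornithine partners gave 0 calls, each of 5 tested. Of the 18 partner calls, 8 held without each single library (TIMM10, SFXN2, SFXN3, ME2, AK4, FLAD1, NADK2 and ISCU) and 10 were lost without at least 1, where the highest edgeR adjusted p of each lay between 0.0513 and 0.121.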

How the data were processed

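Poly(A) RNA was made into dUTP-marked libraries and sequenced in pairs, per the labels' protocols. Tools listed without roles in the submitters' processing notes were HISAT2 2.0.4, StringTie 1.3.4d, Bowtie 0.12.2 and cutadapt 1.9, with builds hg38 and mm8; coordinates here are as in the deposited table, on hg38. The authors deposited whole-number counts and FPKM per gene, per the file headers; which program counted, and with which strand setting, is not stated in the sources used here.

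Groups came from the treatment label. Rows with a mean FPKM of at least 0.5 (14708) were tested on the counts with edgeR 4.0.16 (quasi-likelihood, TMM factors 0.951 to 1.04, R 4.3.3), and two-sided p-values were adjusted over all of them by Benjamini-Hochberg. CPM use the TMM-scaled totals. The SE of an edgeR value is its absolute log2 fold change over the square root of the F of its test. Alternatives used DESeq2 1.42.0 and limma 3.58.1, other filters and scalings, and fewer libraries. The test was checked on simulated data. Members, substrate groups and partner lists were chosen with earlier results of these data known. All members are counted; 1 called carrier and 1 called partner gene are not reported here. Values in every library are given for those that passed and for the most abundant of each group, and up to 4 called genes per partner list. Members shown for their range or paralog were added to that rule after their values were seen. Intervals and tests cover these libraries only. Figures were drawn with matplotlib 3.10.9.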

Additional observations from a re-analysis of the deposited data

How the results depend on the processing

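No paired analysis was possible because the sample titles share no replicate numbers between groups. The number of carriers that rose was 0 and became 1 with DESeq2 (SLC25A35) and 2 without shCtrl 3 and shTFAM 3 together (SLC25A24 and SLC25A1); leaving out 1 library gave 0 to 1. The number that fell was 4 and became 2 without a filter, 2 with edgeR's count filter, 1 without shCtrl 3 and shTFAM 3 together (SLC25A32), and 0 to 1 with 1 library left out. It was 3 at a mean FPKM of at least 5, where SLC25A33 is not tested, 5 with counts outside mitochondrial DNA and 5 with quantile-normalized FPKM, and 4 in the other alternatives. With counts outside mitochondrial DNA as library size, 1198 rows rose and 1771 fell over the whole table, with library totals 1353 and 1266, and with limma on log2(FPKM + 1) 1278 and 1337, beside 1661 and 969 in the TMM fit; leaving out 1 library gave 843 to 1332 and 305 to 733. The cause of these differences was not tested.

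Over 16 alternatives, the sign changed for 10 uncalled carriers and 3 paralog pairs, and for none of the called carriers or called partner genes. Without shCtrl 3 and shTFAM 3 the log2 fold change was 0.0096 for SLC25A5, 0.091 for SLC25A11, 0.081 for SLC25A25 and 0.10 for SLC25A51. With counts outside mitochondrial DNA it was -0.029 for SLC25A16, -0.064 for SLC25A20 and -0.053 for SLC25A22. Library totals gave -0.011 for SLC25A20 and -0.0065 for SLC25A22, and limma gave -0.039 and -0.047 for SLC25A20 with pseudocounts of 1 and 0.1. Leaving out 1 library gave -0.095 to 0.0041 for SLC25A5, -0.092 to 0.073 for SLC25A6, -0.11 to 0.086 for SLC25A11, -0.050 to 0.25 for SLC25A16, -0.24 to 0.22 for SLC25A20, -0.27 to 0.36 for SLC25A22, -0.14 to 0.086 for SLC25A25, -0.088 to 0.019 for SLC25A28, -1.38 to 0.67 for SLC25A43 and -0.14 to 0.16 for SLC25A51. For paralog ratios it gave -0.087 to 0.066 for SLC25A5/SLC25A6, -0.31 to 0.29 for SLC25A22/SLC25A18 and -0.21 to 0.10 for SLC25A16/SLC25A42. Low counts limit most of the 10 untested rows, and 3 counts equal 0.0517 to 0.0673 CPM. The filter of 0.5 FPKM also depends on gene length. SLC25A53, with 71 to 139 counts and an implied length of 8.16 kb, was not tested. SLC25A41, with 48 to 96 counts and an implied length of 1.98 kb, was tested.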
